A study of Mus musculus with 6 samples.

Results

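Ikaros is known to work in lymphocytes together with the nucleosome remodelling and deacetylase complex, NuRD, and the levels of the messenger RNAs of 10 NuRD subunits were followed here through 3 Ikaros genotypes. The 10 genes (Chd3, Chd4, Hdac1, Hdac2, Mta1, Mta2, Mta3, Mbd3, Rbbp4 and Rbbp7) were taken by name from the deposited table, with the transcript of highest mean level standing for each gene. They are 10 of 22098 gene names in that table and 10 of the 10322 that were tested, that is, those with a mean of at least 1 RPKM (a read level scaled to transcript length and library size). The samples were B cells with IgM at their surface, which had been sorted out of bone marrow from mice of the C57BL/6 strain at 6 weeks of age. There were 2 libraries each of wild-type mice, of mice homozygous for loss of Ikaros zinc finger 1 (Ikaros_ZnF1-/-, below the ZnF1 mutant) and of mice homozygous for loss of zinc finger 4 (Ikaros_ZnF4-/-, the ZnF4 mutant). The labels name no Cre driver or transgene, and no treatment. They number the libraries as replicates without saying whether each came from its own animal, so that each p-value reflects only how these samples vary. The 2 libraries of each mutant differed in the Y-linked Ddx3y, as libraries of the same animal would not. It was at 0 against 20.4 RPKM in ZnF1 mutants and 0 against 16.6 in ZnF4 mutants. The spread between the wild-type libraries may be technical.

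NuRD joins a motor that slides nucleosomes to an enzyme that removes acetyl groups from histones. Chd3 and Chd4, also called Mi-2 alpha and beta, are the ATP-dependent remodellers, and Hdac1 and Hdac2 are the deacetylases. The MTA proteins form the scaffold that holds the deacetylases, Mbd3 or its relative Mbd2 links the modules, and Rbbp4 and Rbbp7 are histone-binding WD repeat proteins that also serve in other complexes. Ikaros recruits NuRD to its target genes, and Chd4 and Ikaros are both needed for normal lymphocyte development.

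The cells had the markers of B cells in every library, and markers of other marrow cells differed between libraries. The summed level of 7 B cell markers lay between 4626 and 5592 RPKM, with 0 markers at 0 in any library. Of the T cell list, Cd3e, Cd3d and Cd3g did not exceed 0.8 RPKM, Cd8a was at 1.2 and 1.5 in ZnF1 mutants and 0.1 to 0.2 elsewhere, Cd5 was at 2.0 to 4.2 and Lck at 11.2 to 19.9. The sum of 12 granulocyte and monocyte markers was 476.8 and 748.2 RPKM in wild type, 1846.5 and 2028.3 in ZnF4 mutants, 1482.5 in ZnF1 replicate 1 and 7919.0 in ZnF1 replicate 2, with no marker at 0 in any library. The sum of 9 erythroid markers reached 664.6 RPKM in ZnF1 replicate 2 against 99.5 to 241.2 elsewhere, again with none at 0. ZnF1 replicate 2 stood apart in these markers. In the granulocyte and monocyte sum, every mutant library lay above wild type. The part of the other cells in the NuRD values was not tested. Of the NK and plasmacytoid dendritic cell list, 4 genes were tested, with a median difference of 1.33 between the mutants and 0.88 for ZnF1 mutants against wild type, and Bst2 was called higher in ZnF1 than in ZnF4 mutants (log2 fold change 1.29, adjusted p = 0.0112 by limma). Of the plasma cell list, the low Sdc1 fell in ZnF1 mutants from 5.3 and 3.3 RPKM to 0.6 and 0.4 (log2 fold change -2.24, adjusted p = 0.0347 by limma). The wild-type libraries themselves differed in this list, with sums of 831.9 and 260.0 RPKM and Igj at 413.8 and 1.1. The Y-linked Ddx3y was listed at 0 in 4 libraries, at 20.4 RPKM in the library of ZnF1 replicate 2 and at 16.6 in that of ZnF4 replicate 2. The term for sex used below was read from this gene, with at least 1 RPKM taken as male. By that rule, replicate 2 of each mutant counts as male and no wild-type library does, so sex is unbalanced between wild type and mutants. In bulk samples, fewer cells of a type and less RNA per cell cannot be told apart.

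Ikzf1, the gene of Ikaros, was at 176.5 and 178.6 RPKM in wild type, 201.1 and 168.4 in ZnF1 mutants and 287.3 and 244.0 in ZnF4 mutants. A value for the whole transcript does not check the loss of a finger. The ZnF4 libraries lay above all others, but the log2 fold change of 0.58 against wild type did not pass (SE 0.16, adjusted p = 0.111 by limma).

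How well a level can be read depends on whether the transcript has copies elsewhere in the genome, and Hdac1 is the member for which this matters most. Of the 50-base windows of the Hdac1 transcript, 58.7% occur also in transcripts of other genes of the GENCODE M21 annotation (assembly GRCm38), and 56.4% occur in the processed pseudogene Gm10093. Over 1444 coding bases the gene and this copy differ at 9. A coding stretch of 60 bases is shown to let the copies be compared, from exon 5 of Hdac1 (chr4:129523020-129523079, minus strand) and from exon 1 of Gm10093 (chr17:78491959-78492018, plus strand), 5′ to 3′, with the differing base in capitals (C31T, counted from 1 at the 5′ end):
Hdac1: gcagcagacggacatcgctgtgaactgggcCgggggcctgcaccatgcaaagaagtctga
Gm10093: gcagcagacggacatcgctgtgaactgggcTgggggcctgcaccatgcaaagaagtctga
For Rbbp4, 33.8% of windows were shared with other genes, and for Rbbp7 15.1%. Pseudogenes shared 0.872% of the Rbbp4 windows and 9.38% of those of Rbbp7. The gene that shared most with Rbbp4 was the long non-coding RNA gene Gm26722 (17.2%). Whether such genes overlap the member in the genome was not checked. The other 7 members shared 0% of their windows. How the authors counted reads with several matches is not given in the sources used here. The levels of Hdac1, Rbbp4 and Rbbp7 are thus uncertain, and the effect of the shared sequence on them was not tested.

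The promoters of the members were searched for TGGGAA, a sequence that Ikaros is known to bind. RefSeq windows (GRCm38.p6, 250 bases before to 50 after a start) matched 7 members with 8 windows: Chd4 with 2, and Hdac2, Mbd3, Mta1, Mta2, Rbbp4 and Rbbp7 with 1 each. On either strand, 1 of the 8 windows held the motif, that of Rbbp7, as did 25.6% of all 32817 windows. The shorter core GGGAA, which lies within TGGGAA, was in 2 of the 8 windows on either strand, with 2 matches in the Chd4 window printed here and 1 in that of Rbbp7, and in 62.7% of all windows. The window of Rbbp7 is shown for its match, which reads TTCCCA on the printed strand and lies downstream of the start (in capitals), and that of Chd4 because this gene had the largest difference in ZnF4 mutants. The Chd4 window holds no TGGGAA and is without capitals. The coordinates are chrX:162760122-162760421 (plus strand) for Rbbp7 and chr6:125095913-125096212 (plus strand) for Chd4:
Rbbp7: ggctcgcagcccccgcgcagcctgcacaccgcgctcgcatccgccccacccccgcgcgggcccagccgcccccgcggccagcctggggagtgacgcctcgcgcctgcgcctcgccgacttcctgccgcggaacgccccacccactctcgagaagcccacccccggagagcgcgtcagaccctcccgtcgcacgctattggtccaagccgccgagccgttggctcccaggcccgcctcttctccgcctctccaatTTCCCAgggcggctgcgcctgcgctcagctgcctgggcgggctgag
Chd4: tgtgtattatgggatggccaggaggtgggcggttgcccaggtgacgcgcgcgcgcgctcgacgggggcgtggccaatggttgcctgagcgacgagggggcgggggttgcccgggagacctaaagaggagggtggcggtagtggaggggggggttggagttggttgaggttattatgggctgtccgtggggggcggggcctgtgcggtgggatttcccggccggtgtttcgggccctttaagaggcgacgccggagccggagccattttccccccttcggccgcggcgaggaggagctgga
A match to 6 letters is a description of the window and not evidence of binding. The member windows were rich in G and C, with a median of 68.5% against 52.7% over all windows, and held a median of 33 CG pairs against 7.

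All 10 NuRD subunits were expressed in these B cells, at levels that spanned from 6.42 RPKM for Hdac1 to 129 for Chd4 (means over the 6 libraries). In each role with paralogues, 1 of them was above the rest. The remodeller Chd4 was at a mean of 3.60 times the level of Chd3 over the 6 libraries, with ratios between 2.79 and 4.05. The scaffold gene Mta2 was at 5.79 times the level of Mta1 and 4.45 times that of Mta3 (2.91 times with the transcripts of Mta3 summed). Hdac2 was at 4.84 times the listed level of Hdac1, subject to the shared sequence described above, and Rbbp4 at 2.15 times that of Rbbp7. Each of these orders held in all 6 libraries. RPKM is scaled by length, but the comparison of levels between genes still depends on the transcript chosen. For Hdac1, Rbbp4 and Rbbp7 it is also subject to the shared sequence described above.

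**Figure D1:**
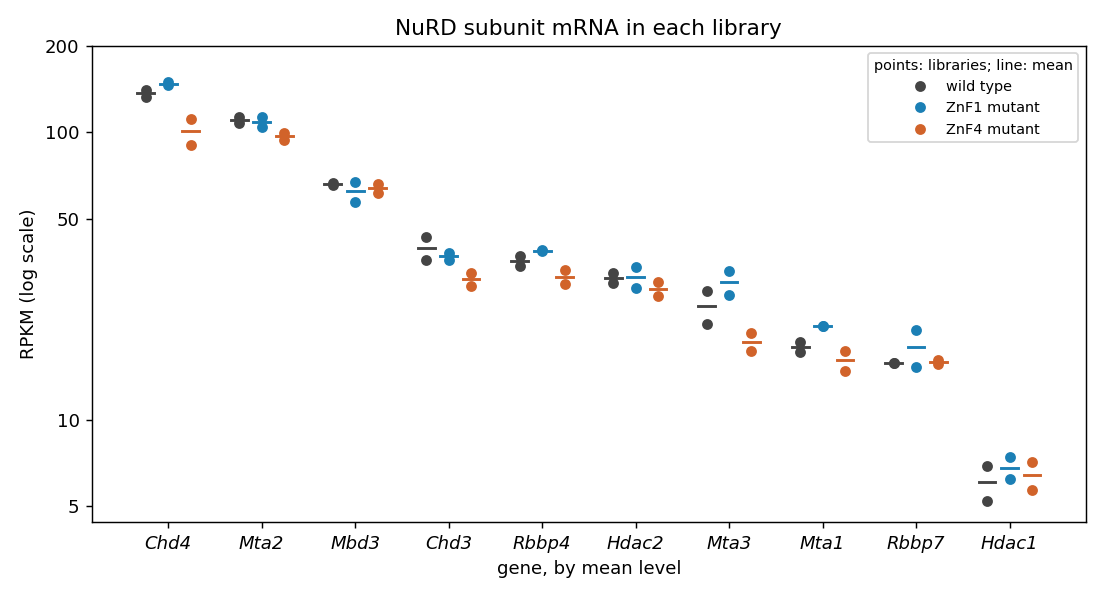
RPKM of the 10 NuRD members (log axis), ordered by mean level; each point is a library, each short line the mean of a genotype's 2 libraries. Chd4 lies at 111.7 and 90.6 in ZnF4 mutants and between 132.8 and 149.7 in the other 4 libraries, while Mbd3 and Hdac2 overlap between genotypes.

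From the highest to the lowest mean, the order was Chd4, Mta2, Mbd3, Chd3, Rbbp4, Hdac2, Mta3, Mta1, Rbbp7 and Hdac1. With its 3 transcripts summed, Mta3 had a mean of 37.8 RPKM and ranked 4 of 10, above Chd3. With single transcripts, 3 of the 9 neighbouring pairs had ranges that stayed apart over the 6 libraries, namely Mta2 above Mbd3, Mbd3 above Chd3 and Rbbp7 above Hdac1. Chd4 exceeded Mta2 in 5 of 6 libraries, the exception being ZnF4 replicate 2, and Chd3 exceeded Rbbp4 in 1 of 6. In wild type, Chd4 stood at the 97.5 percentile of the tested genes, Mta2 at 96.6, Mbd3 at 92.5 and Hdac1 at 30.9.

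To ask whether loss of finger 1 altered the supply of NuRD mRNA, the ZnF1 mutant was compared with wild type. None of the 10 members passed (limma, adjusted p between 0.551 and 0.995), and 0 had an unadjusted p under 0.05. Of all tested genes, 0.271% passed, 0.0969% as higher and 0.174% as lower, and 11.9% had such an unadjusted p. With all libraries, the largest differences were those of the scaffold genes Mta3 and Mta1. Mta3, the MTA gene known for its partnership with Bcl6 in B cells, was at 28.1 and 21.6 RPKM in wild type and 32.9 and 27.2 in ZnF1 mutants. These libraries overlapped, and the log2 fold change was 0.27 (SE 0.17). Leaving out a wild-type library gave 0.46 (replicate 1) or 0.09 (replicate 2). Leaving out ZnF1 replicate 1 gave 0.14, and Hdac1 then had the largest difference (0.28). Mta1 was at 17.2 and 18.7 RPKM in wild type and at 21.2 in both ZnF1 libraries, which lay above wild type (log2 fold change 0.24, SE 0.13). For Chd4, values were 140.7 and 132.8 RPKM in wild type and 145.9 and 149.7 in ZnF1 mutants (log2 fold change 0.11, SE 0.14).

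Mta1, Chd4 and Rbbp4 were the 3 members with both ZnF1 libraries above both wild-type ones, and 0 members had both below; of all tested genes, 21.1% lay wholly above and 20.3% wholly below. A positive log2 fold change was found for 7 members (49.5% of all tested genes) and a negative one for 3 (50.4%), or for 6 and 4 with libraries scaled to equal medians. The median was 0.11 over the members and -0.0019 over all tested genes. The member median was 0.03 without ZnF1 replicate 1, when 5 of 10 were negative, 0.06 without wild-type replicate 2, and 0.11 without ZnF1 replicate 2. The 95% intervals of the members ran from -0.40 at the lowest to 0.67 at the highest, so that each of the 10 intervals lay within a 2-fold change in either direction, as did 85.9% of all intervals. Rbbp7, which is X-linked, had 15.8 RPKM in each wild-type library, 20.5 in ZnF1 replicate 1 and 15.2 in ZnF1 replicate 2. The high value thus stood in a single library.

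With loss of finger 4, none of the NuRD members passed against wild type. Of the 10, 8 had a negative log2 fold change (7 with quantile normalization) and 2 a positive one, with a median of -0.17 (-0.10 with quantile normalization), beside 52.8% and 47.2% of all tested genes and a median of -0.02. By limma, adjusted p-values lay between 0.167 and 0.988, and 2 members, Chd4 and Chd3, had an unadjusted p under 0.05. Of all tested genes, 3.2% passed, 1.78% as higher and 1.41% as lower, and 17.4% had such a p.

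The largest differences were those of Chd4, Mta3 and Chd3. The remodeller gene Chd4 was at 111.7 and 90.6 RPKM in ZnF4 mutants, against 140.7 and 132.8 in wild type. Both mutant libraries lay below both wild-type ones, with a log2 fold change of -0.44 (SE 0.14, 95% interval -0.77 to -0.11, adjusted p = 0.167 by limma). Chd3 was at 35.9 and 43.1 RPKM in wild type, 36.0 and 38.0 in ZnF1 mutants and 29.1 and 32.5 in ZnF4 mutants. Its ZnF4 libraries were the lowest 2 of the 6 (log2 fold change -0.35, SE 0.13, adjusted p = 0.238 by limma). Together the remodellers summed to 176 ± 0.495 RPKM in wild type (SD, n = 2) and 132 ± 12.5 in ZnF4 mutants, or 74.9% of wild type. They summed to 185 ± 4.10 in ZnF1 mutants. The wild-type SD of the sum understates the spread of its parts. Chd4 was higher in wild-type replicate 1 and Chd3 in replicate 2, with SDs of 5.59 and 5.09 RPKM.

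Among the scaffold genes, Mta3 was at 17.4 and 20.0 RPKM in ZnF4 mutants, below both wild-type libraries (log2 fold change -0.39, SE 0.17, adjusted p = 0.292 by limma). Mta2 was at 112.8 and 108.1 RPKM in wild type, 113.0 and 104.7 in ZnF1 mutants and 94.3 and 99.7 in ZnF4 mutants, which again lay lowest (-0.19, SE 0.12). Mta1 was at 17.4 and 14.8 RPKM in ZnF4 mutants and overlapped with wild type (-0.16, SE 0.13). The histone-binding gene Rbbp4 was at 37.2 and 34.3 RPKM in wild type, 39.0 and 38.6 in ZnF1 mutants and 29.6 and 33.1 in ZnF4 mutants (-0.19, SE 0.12).

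The deacetylases, Mbd3 and Rbbp7 overlapped between ZnF4 and wild type. Hdac2 was at 30.0 and 32.4 RPKM in wild type, 34.0 and 28.8 in ZnF1 mutants and 30.1 and 27.0 in ZnF4 mutants. Hdac1 was at 6.9 and 5.2, 6.2 and 7.4, and 5.7 and 7.1 RPKM in the same order of genotypes. Mbd3 was at 66.6 and 65.4, 67.4 and 57.4, and 66.4 and 61.7 RPKM. Rbbp7 was at 16.2 and 15.6 RPKM in ZnF4 mutants, around its wild-type value of 15.8. Log2 fold changes of these 4 genes in ZnF4 mutants were -0.13, 0.08, -0.04 and 0.01, with 95% intervals that stayed between -0.44 and 0.54.

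In all, 5 members (Chd3, Chd4, Mta2, Mta3 and Rbbp4) had both ZnF4 libraries below both wild-type libraries and 0 had both above, where 27.2% of all tested genes lay wholly below and 23.1% wholly above. Each of the 10 intervals lay within a 2-fold change, as did 82.1% of all intervals. The RPKM of the 10 members summed to 491.2 and 477.4 in wild type, 516.1 and 488.2 in ZnF1 mutants and 417.9 and 402.1 in ZnF4 mutants. The ZnF4 sums were thus the lowest, at a mean of 84.7% of wild type. By role, this share was 74.9% for the remodellers, 86.0% for the MTA genes and 91.7% for Rbbp4 with Rbbp7. It was 93.8% for the deacetylases and 97.0% for Mbd3.

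**Figure D2:**
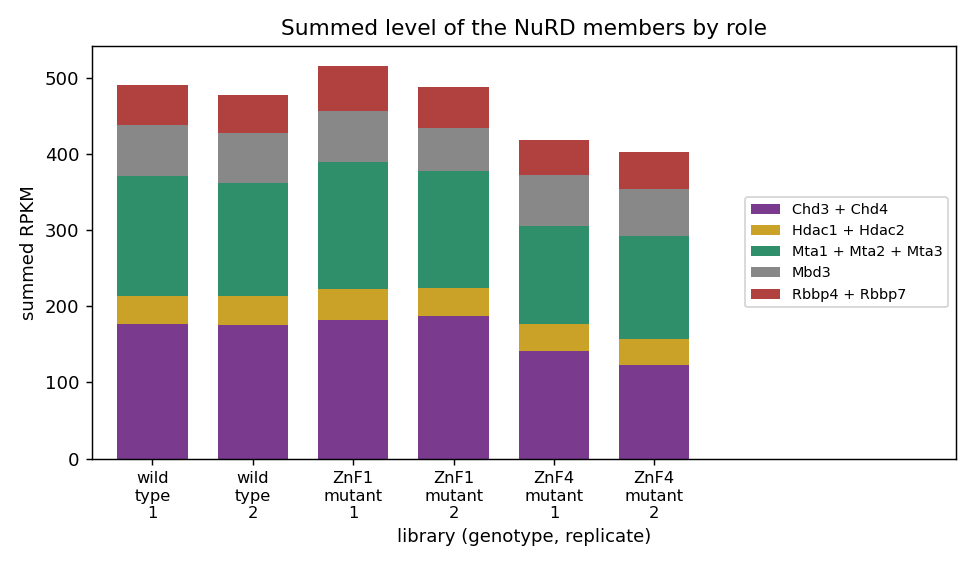
Summed RPKM of the 10 NuRD members in each library, stacked by role. The ZnF4 bars end at 417.9 and 402.1, and the part from Chd3 and Chd4 is 140.8 and 123.1 there against 176.6 and 175.9 in wild type.

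The mutants were compared directly to see whether the NuRD genes differed between loss of either finger. None of the 10 passed by limma (adjusted p between 0.0748 and 0.898), while 4 had an unadjusted p under 0.05, namely Mta3, Chd4, Mta1 and Rbbp4. Of all tested genes, 4.78% passed, 2.08% as higher and 2.69% as lower, and 20.0% had such a p. Levels in ZnF1 mutants exceeded those in ZnF4 mutants by 0.67 on the log2 scale for Mta3 (SE 0.17, 95% interval 0.27 to 1.06, adjusted p = 0.0748) and by 0.55 for Chd4 (SE 0.14, interval 0.22 to 0.89, adjusted p = 0.0776). The differences of Mta1 and Rbbp4 were 0.39 and 0.31. Of the 10 members, 9 had higher means in ZnF1 mutants, the exception being Mbd3 at -0.04, beside 54.2% of all tested genes with a positive and 45.8% with a negative difference. The libraries of 6 members (Chd3, Chd4, Mta1, Mta2, Mta3 and Rbbp4) lay wholly higher in ZnF1 mutants, as did 25.8% of all genes, and those of 0 members wholly lower, as did 21.0% of all genes. All intervals but that of Mta3 lay within a 2-fold change, and 80.6% of those of all genes did.

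**Figure D3:**
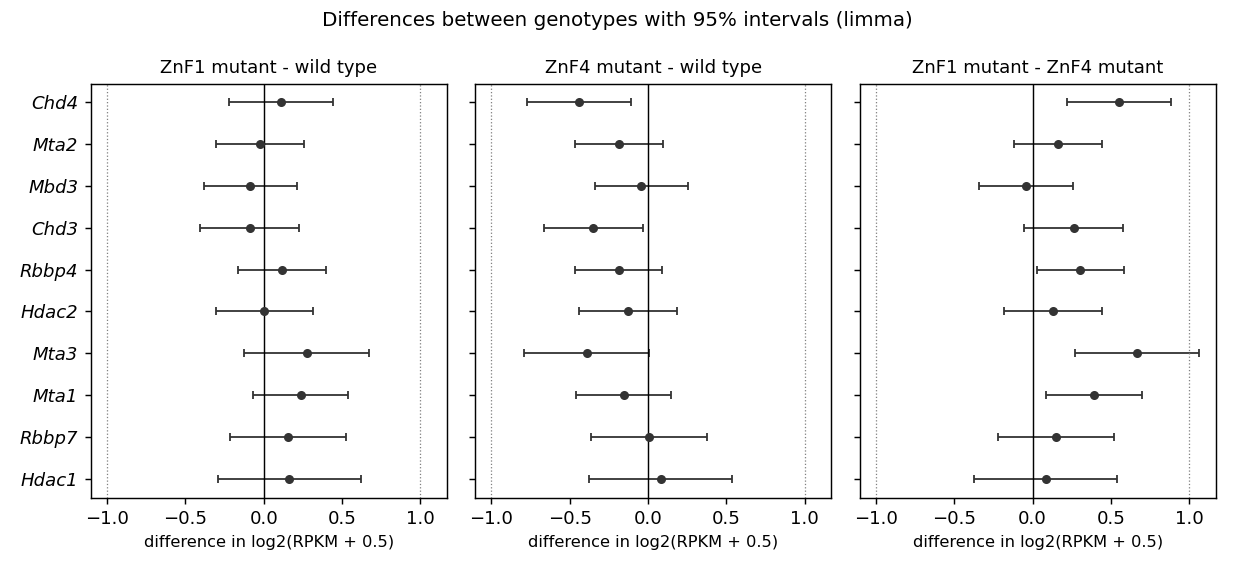
Differences in log2(RPKM + 0.5) between genotypes for each member (x axis), with 95% intervals from limma; dotted lines mark a 2-fold change. Intervals of Chd4 and Chd3 lie wholly below 0 for the ZnF4 mutant against wild type, none of these differences passed after adjustment over 10322 genes, and only the upper bound of Mta3 between the mutants (1.06) goes past a 2-fold change.

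Mta3 was the only member with several transcripts in the table, 3 in all, and they kept the same order of genotypes. The transcript of 2689 bases used above had the highest mean, 24.5 RPKM. That of 1744 bases was at 8.2 and 5.4 RPKM in wild type, 10.9 and 8.4 in ZnF1 mutants and 4.8 in both ZnF4 libraries. That of 2132 bases was at 7.1 and 5.1, 7.4 and 8.6, and 4.3 and 4.7. Each had its 2 lowest values in the ZnF4 libraries. Reads of the exons that the transcripts share may have been counted for each, so the 3 are not independent. Summed over transcripts, Mta3 was at 43.4 and 32.1 RPKM in wild type, 51.2 and 44.2 in ZnF1 mutants and 26.5 and 29.5 in ZnF4 mutants, and the difference between the mutants was 0.76 (adjusted p = 0.0516 by limma, against 0.0748 with a single transcript).

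The balance between paralogues was read as a ratio in each library. That of Chd4 to Chd3 was 3.92 and 3.08 in wild type, 4.05 and 3.94 in ZnF1 mutants and 3.84 and 2.79 in ZnF4 mutants, so both ZnF1 libraries lay above the other 4. Mta2 over Mta1 was 6.56 and 5.78 in wild type, 5.33 and 4.94 in ZnF1 mutants and 5.42 and 6.74 in ZnF4 mutants, with the ZnF1 libraries lowest. Mbd3 and Mbd2, which encode alternative subunits, were at nearly equal levels: the ratio of Mbd3 to Mbd2 was 0.972 and 0.989 in wild type, 0.971 and 0.880 in ZnF1 mutants, and 1.19 and 1.17 in ZnF4 mutants, where both libraries lay above all others. For a single ratio, an exact permutation test of 2 against 2 libraries cannot give a p below 0.333, so these ratios are descriptions.

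The other subunits of NuRD mostly had fold changes of the same sign in ZnF4 mutants, and none passed. Of 8 further NuRD genes, 5 were tested, and 0 were called by limma in any of the 3 comparisons, with 0, 2 and 2 at an unadjusted p under 0.05 (ZnF1, ZnF4, between mutants). In all, 4 of the 5 had a negative log2 fold change in ZnF4 mutants (median -0.21). Mbd2 was at 68.5 and 66.1 RPKM in wild type, 69.4 and 65.2 in ZnF1 mutants and 55.7 and 52.8 in ZnF4 mutants (log2 fold change of the ZnF4 mutant -0.31, adjusted p = 0.220 by limma). Gatad2b, a p66 subunit, was at 43.9 in both wild-type libraries, 40.3 in both ZnF1 libraries and 37.5 and 33.2 in ZnF4 mutants (-0.31, adjusted p = 0.226 by limma).

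Among 10 zinc finger factors that recruit NuRD, 6 were tested and 1 passed. Bcl6, the germinal centre repressor that binds Mta3, was at 30.7 and 27.2 RPKM in wild type, 33.2 and 31.3 in ZnF1 mutants and 19.7 and 20.4 in ZnF4 mutants. It was higher in ZnF1 than in ZnF4 mutants (log2 fold change 0.67, SE 0.12, adjusted p = 0.0247 by limma). Its genotype means had the order of those of Mta3, whose ZnF1 and wild-type libraries overlapped. The means of Chd4, Mta1, Rbbp4, Hdac2 and Top2a had this order too. The call was lost in each of the 6 fits that left out a library, with fold changes between 0.63 and 0.71, and with only the 2 genotypes fitted.

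Of the 9 other histone deacetylase genes, all tested, Hdac11 fell in ZnF4 mutants from 4.6 and 4.7 RPKM to 1.5 and 1.9 (log2 fold change -1.23, SE 0.18, adjusted p = 0.0165 by limma). It was at 4.2 and 4.4 RPKM in ZnF1 mutants, higher than in ZnF4 mutants (1.13, adjusted p = 0.0185). Hdac5, a class II deacetylase gene, was at 29.3 and 32.3 RPKM in wild type, 21.2 and 18.0 in ZnF1 mutants and 32.7 and 33.8 in ZnF4 mutants, and was lower in ZnF1 than in ZnF4 mutants (-0.75, SE 0.13, adjusted p = 0.0221 by limma). Among the fits that left out a library, this call was made only without ZnF1 replicate 1, and it was lost with no filter on low values and with only the 2 genotypes fitted. The remaining 7 did not pass in any comparison.

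In the CoREST and CtBP list, which holds other deacetylase corepressors, 1 of 9 tested genes passed. Rcor2, a CoREST subunit, fell in ZnF4 mutants from 4.1 and 5.1 RPKM to 1.8 and 1.4 (log2 fold change -1.28, SE 0.20, adjusted p = 0.0219 by limma), and at 4.2 and 3.7 in ZnF1 mutants it was higher there than in ZnF4 mutants (1.09, adjusted p = 0.0295). The calls of Hdac11 and Rcor2 against wild type were lost when any wild-type or ZnF4 library was left out, with fold changes from -1.36 to -1.10 for Hdac11 and from -1.42 to -1.14 for Rcor2. Between the mutants, the call of Hdac11 was lost when any of the same libraries was left out. The wild-type libraries do not enter its fold change between the mutants (1.13), so leaving 1 of them out can alter the p-value but not the fold change. The call of Rcor2 between the mutants was lost without any 1 of the 6 (0.95 to 1.23). Rcor2 was also not called in either comparison with no filter on low values, nor against wild type with a term for sex. With only the 2 genotypes fitted, neither gene was called between the mutants.

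None passed in any comparison among 13 tested SWI/SNF, 10 SIN3, 5 NCoR complex, 7 PRC2 and CAF-1, and 7 other CHD genes (limma). At an unadjusted p under 0.05 there were 1, 5 and 2 SWI/SNF genes in the ZnF1, ZnF4 and direct comparisons, 0, 0 and 1 SIN3, 0, 0 and 0 NCoR complex, 0, 2 and 1 PRC2 and CAF-1, and 0, 0 and 1 CHD genes. The ZnF4 medians were -0.20, -0.15, -0.19, -0.13 and 0.02 in that order, and the NuRD median of -0.17 lay within this range. Smarca4, the SWI/SNF motor that Ikaros also binds, was at 72.2 and 86.4 RPKM in wild type, 59.9 and 53.4 in ZnF1 mutants and 62.7 and 57.0 in ZnF4 mutants (log2 fold change of the ZnF1 mutant -0.48, adjusted p = 0.242 by limma). Its values were below wild type in all 4 mutant libraries. Smarca2, the alternative SWI/SNF motor, was at 18.9 and 15.5 RPKM in wild type against 23.9 and 23.6 in ZnF4 mutants (0.46, adjusted p = 0.126).

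The leading genes of the other lists likewise did not pass by limma. Ezh2, the PRC2 methyltransferase, was at 23.6 and 29.3 RPKM in wild type, 25.0 and 31.6 in ZnF1 mutants and 21.0 and 17.4 in ZnF4 mutants (ZnF1 over ZnF4 mutant 0.54, adjusted p = 0.138). Chaf1a, a CAF-1 subunit, had a log2 fold change of -0.52 in ZnF4 mutants (adjusted p = 0.274), which became -0.84 or -0.20 when replicate 1 or 2 of wild type was left out, and the corepressor Ncor1 had -0.19 (adjusted p = 0.430). Of the SIN3 subunits, Ing1 was at -0.31 in ZnF4 mutants (adjusted p = 0.322) and Ing2 differed by 0.47 between the mutants (adjusted p = 0.151). The remodellers Chd7 and Chd9 differed by -0.43 and -0.26 between the mutants (adjusted p = 0.168 and 0.275), which is the opposite sign to Chd4.

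Genes of DNA replication and mitosis had fold changes of the same sign as most NuRD members. In ZnF4 mutants 20 of 21 tested genes had a negative log2 fold change with a median of -0.49, and none passed by limma (7 at an unadjusted p under 0.05), and in the direct comparison 4 (Top2a, Birc5, Rrm2 and Ccna2) were higher in ZnF1 mutants, 17 did not pass and the median was 0.75. Top2a, the topoisomerase of dividing cells, was at 29.9 and 40.2 RPKM in wild type, 35.3 and 44.1 in ZnF1 mutants and 20.5 and 16.3 in ZnF4 mutants (1.09 between the mutants, adjusted p = 0.0247 by limma). Its call was lost without ZnF1 replicate 2 or either ZnF4 library (0.93 to 1.25) and with no filter on low values. Birc5, Rrm2 and Ccna2 differed by 0.94, 1.22 and 0.75 (adjusted p = 0.0400, 0.0412 and 0.0452), and without 1 library they were called only when ZnF1 replicate 1 was left out. Of the 10 other alternatives, 7 kept the call of Birc5, 5 that of Rrm2 and 4 that of Ccna2. All 3 were lost with no filter on low values, with equal medians and with only the 2 genotypes fitted, Rrm2 and Ccna2 also with quantile normalization and a term for sex, and Ccna2 with the replicate block. The list median per library, as a difference from the wild-type mean, was -0.36 and -0.42 in ZnF4 mutants and -0.02 and 0.36 in ZnF1 mutants, where the NuRD medians were -0.15 and -0.18, and 0.11 and 0.03. The replication median was thus highest in ZnF1 replicate 2 and the NuRD median in ZnF1 replicate 1. Its part in the NuRD values was not tested.

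**Figure D4:**
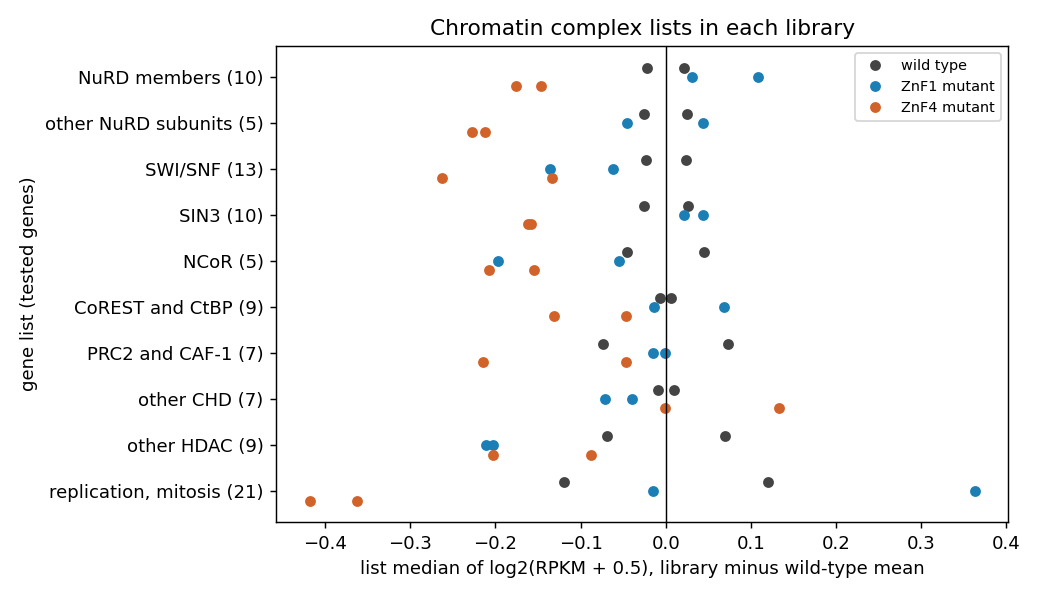
Median difference from the wild-type mean (x axis, log2(RPKM + 0.5)) for each gene list and library; each point is a library and the number of tested genes stands beside the list. The ZnF4 points of the NuRD members (-0.15 and -0.18) lie among those of the SIN3, NCoR and SWI/SNF lists, and the replication list lies lowest at -0.36 and -0.42.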

How the data were processed

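Poly(A)-enriched RNA had been made into Illumina TruSeq libraries, per the labels' protocols. The authors deposited 1 table of RPKM per RefSeq transcript, rounded to steps of 0.1, with transcript lengths; the submitters' processing notes list mm9, TopHat and bedtools, and versions, strand and the handling of reads with several matches are not given in the sources used here. The depth per library is unknown.

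The transcript with the highest mean stood for each gene name. Genes with a mean of at least 1 RPKM were tested on log2(RPKM + 0.5) with limma 3.58.1 in R 4.3.3 (1 coefficient per genotype over all 6 libraries, eBayes with trend, two-sided, Benjamini-Hochberg over 10322 genes, called under 0.05). The fit was tested on simulated data with changes of at least 1 on the log2 scale. Every member difference was smaller, so the simulation does not cover changes of that size. Fold changes on this scale understate those of low genes. Both mutants share the wild-type libraries.

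The members and the 16 other lists were chosen with earlier results of these data known. Named genes were the 10 members, Ikzf1, in each list that is no marker list up to 4 called genes or else the 2 with the smallest p, and the 5 genes most like the members. The values of 1 gene that this rule names are not reported here. Of the cell type marker lists, plasma cell markers summed to 831.9 RPKM in wild-type replicate 1 and 207.3 to 394.4 elsewhere, T cell markers to 17.0 to 24.7, and NK and plasmacytoid dendritic cell markers to 1153 to 1654, most of it from Ly6d. Shared windows were counted on both strands of the GENCODE M21 transcripts.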

Additional observations from a re-analysis of the deposited data

How the results depend on the processing

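The members were tested in 16 alternative fits per comparison, and none of the 480 resulting tests passed. The alternatives were added values of 0.1 and 1 in place of 0.5, no filter on low values, a minimum mean of 5 RPKM, quantile normalization, equal medians, the fit of only the 2 genotypes, a replicate block, a term for sex, summed transcripts and each of the 6 libraries left out. The smallest adjusted p of a member by limma was 0.495 in ZnF1 mutants, 0.160 in ZnF4 mutants and 0.0516 between the mutants. With quantile normalization, the ZnF4 differences of Chd4, Chd3, Mta3, Mta2 and Rbbp4 were -0.33, -0.29, -0.36, -0.08 and -0.12. In the main fit they were -0.44, -0.35, -0.39, -0.19 and -0.19. Of 300 member fold changes in the first 10 alternatives, 6 changed sign, all of them close to 0. In ZnF1 mutants Hdac2 was -0.0029 with quantile normalization and -0.012 with equal medians, and Mta2 was 0.021 with quantile normalization. In ZnF4 mutants Hdac1 was -0.053 and Mbd3 0.040 with a term for sex, and Mbd3 was 0.060 with quantile normalization. The changes of filter, the fit of only the 2 genotypes and the replicate block cannot alter a member fold change. Nor can summing for the members with a single transcript, and these values are among the 300.

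Without 1 library, 17 of 180 member fold changes changed sign. In ZnF1 mutants they ranged from -0.22 to 0.042 for Chd3, -0.025 to 0.35 for Hdac1, -0.11 to 0.12 for Hdac2, -0.077 to 0.033 for Mta2, -0.20 to 0.030 for Mbd3, -0.054 to 0.37 for Rbbp7 and -0.076 to 0.18 for Ikzf1. In ZnF4 mutants the range was -0.11 to 0.27 for Hdac1, -0.096 to 0.0087 for Mbd3 and -0.018 to 0.035 for Rbbp7. Between the mutants it was -0.063 to 0.23 for Hdac1, -0.16 to 0.074 for Mbd3 and -0.063 to 0.36 for Rbbp7. Chd4 kept its direction, at -0.59 to -0.29 in ZnF4 mutants, as did Mta3 (-0.58 to -0.21) and Chd3 (-0.48 to -0.22). Leaving out 1 library moved these by over 1.5 times for Chd4 (-0.29 without ZnF4 replicate 2), Chd3 (-0.22 without wild-type replicate 2) and Mta3 (-0.21 without wild-type replicate 1), as it did for Mta1 (-0.27 to -0.04) and Rbbp4 (-0.11 without ZnF4 replicate 1). A genotype left with 1 library is assumed to vary like the others. Leaving out a library of the genotype not compared cannot alter a fold change, and such values are among the 180.

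With the replicate number as a block, 0 members passed. The block cannot alter a fold change (Chd4 in ZnF4 mutants -0.44), because each genotype holds both replicate numbers. Of the other named genes, Ccna2 was no longer called (0.75). Deviations of same-numbered libraries correlated with r = 0.28 for wild type and ZnF1, -0.03 for wild type and ZnF4 and 0.21 for the mutants, so the numbers were not taken as pairs.

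Counts over all genes were not stable. Without 1 library they ranged from 0 to 512 in ZnF1 mutants (28 with all), 0 to 591 in ZnF4 mutants (330) and 0 to 814 between the mutants (493). The highest of each was without ZnF1 replicate 1, and counts of 0 came without either ZnF4 library or either wild-type one (ZnF1), without either ZnF4 library (ZnF4) and without ZnF4 replicate 1 (between the mutants). With no filter on low values they were 0, 189 and 309, with only the 2 genotypes 0, 594 and 249; with a term for sex the first and second were 0 and 171, with quantile normalization the first was 13, and with a minimum of 5 RPKM the second was 212. Hdac11 and Rcor2 lie under the minimum of 5 RPKM and were not tested there. Summing transcripts moved the ratio of Mta2 to Mta3 from 4.45 to 2.91 and that of Mta3 to Mta1 from 1.33 to 2.04; Mta2 stayed highest. Depth is unknown, so no counting error is given.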

Other observations

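Over the 6 libraries, NuRD members varied about as much as other genes. The SD of log2 values had a median of 0.17 over the members and 0.20 over all tested genes. Mta3 (0.34) and Chd4 (0.28) varied most, and Mbd3 (0.09) and Mta2 (0.10) least. Mbd3 varied less than all but 6.59% of the tested genes.

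The genes most like the mean log2 level of the 10 members, among 5812 other genes with a mean of at least 10 RPKM, were Ncbp1 (Pearson r over 6 libraries 0.994), the gene listed as 3110001D03Rik (0.994), Adipor2 (0.991), Arl6ip1 (0.991) and Atp1b3 (0.990). Arl6ip1 was at 154.9 and 149.3 RPKM in wild type, 181.4 and 157.6 in ZnF1 mutants and 107.4 and 112.2 in ZnF4 mutants. With 6 points that share 3 genotypes and so many genes searched, high values arise easily, and they are given as a description.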
